A study of Homo sapiens with 7 samples.

Results

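In cells of the human embryonic stem cell line H1 taken through 4 stages towards the endoderm of the pharynx, 8062 regions of chromatin away from the ends of protein-coding genes carried a strong ATAC-seq peak in every library. ATAC-seq maps open chromatin by letting the Tn5 transposase cut accessible DNA. The libraries were 2 of undifferentiated cells (hESC), 2 of definitive endoderm (hDE), 2 of anterior foregut endoderm (hAFE) and 1 of pharyngeal foregut endoderm (hPFE). All came from H1, the agents used to differentiate the cells were not given in the labels, and the hESC and hDE libraries are marked as re-analysed from earlier work while the hAFE and hPFE libraries are not. Stage, source of the libraries and depth therefore cannot be told apart between hDE and hAFE or between hESC and hPFE. The hPFE stage has no replicate, and the labels do not say that replicates are separate cultures. A peak was strong when its number in the deposited list, which follows the deposited −log10 p from strongest to weakest, was at most 80000. Overlapping strong peaks of all 7 lists were merged into 167407 regions on chromosomes 1 to 22 and X, and 149700 of these lay more than 1 kb from both ends of every protein-coding gene in RefSeq (hg38). The 8062 regions with a strong peak in all 7 libraries made 5.39% of those distal regions. Another 10511 regions were strong in all 7 libraries but lay within 1 kb of a gene end, and they are called gene-end regions here.

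As background, most regulatory elements of a vertebrate genome are open in some cell types and closed in others, and enhancers in particular change from stage to stage as cells differentiate. Elements accessible in nearly all cells are mostly promoters of widely used genes, which often lie in stretches rich in the dinucleotide CpG, and binding sites of the insulator protein CTCF, which helps to fold chromosomes into loops. Genes of RNA polymerase III, such as those of transfer RNAs, are also open in most cells. Because the distance rule removed only the outer ends of protein-coding genes, it kept starts inside genes and starts of non-coding genes, so a region called distal here can still be a promoter.

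The sequences below are the RefSeq (GRCh38.p14) start windows that lie under some of these regions, 250 bases before to 50 bases after an annotated start, read 5′ to 3′ on the strand of the transcript. They are shown because the results turn on how many of the regions cover such a start and on what letters these starts hold. Capitals mark GGGCGG on either strand, the core letters bound by SP and KLF factors, which are common activators of CpG-rich promoters. The first is at chr7:143836513-143836812 on the plus strand, in the region with the lowest mean peak number of all 8062, and holds 4 matches, of which 2 overlap by 1 letter. The second, of BBS12, a gene of cilium function, is at chr4:122732454-122732753 on the plus strand in the region that ranked 5. The next is at chr17:16535648-16535947 on the plus strand, in one of the 5 regions whose height varied least between libraries. The last is at chr13:98327956-98328255 on the plus strand, holds no match, and lies in a region that differed between hAFE and hDE.
LOC112267988: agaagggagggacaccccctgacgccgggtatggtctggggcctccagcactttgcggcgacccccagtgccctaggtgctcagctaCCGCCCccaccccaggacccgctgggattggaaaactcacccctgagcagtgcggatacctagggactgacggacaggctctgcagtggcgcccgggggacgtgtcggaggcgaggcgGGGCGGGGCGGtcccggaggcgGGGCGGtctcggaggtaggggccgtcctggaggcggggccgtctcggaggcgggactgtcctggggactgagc
BBS12: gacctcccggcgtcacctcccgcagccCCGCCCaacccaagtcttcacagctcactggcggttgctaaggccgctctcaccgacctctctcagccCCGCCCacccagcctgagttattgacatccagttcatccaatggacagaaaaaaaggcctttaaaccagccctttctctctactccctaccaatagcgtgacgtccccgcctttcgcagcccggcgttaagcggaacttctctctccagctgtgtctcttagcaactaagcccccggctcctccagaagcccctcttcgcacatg
LOC105371554: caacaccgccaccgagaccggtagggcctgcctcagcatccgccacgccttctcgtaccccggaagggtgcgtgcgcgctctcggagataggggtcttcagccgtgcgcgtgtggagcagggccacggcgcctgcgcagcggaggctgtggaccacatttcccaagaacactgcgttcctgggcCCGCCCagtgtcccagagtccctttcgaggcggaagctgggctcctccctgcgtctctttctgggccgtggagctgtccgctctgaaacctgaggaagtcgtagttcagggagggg
LOC105370327: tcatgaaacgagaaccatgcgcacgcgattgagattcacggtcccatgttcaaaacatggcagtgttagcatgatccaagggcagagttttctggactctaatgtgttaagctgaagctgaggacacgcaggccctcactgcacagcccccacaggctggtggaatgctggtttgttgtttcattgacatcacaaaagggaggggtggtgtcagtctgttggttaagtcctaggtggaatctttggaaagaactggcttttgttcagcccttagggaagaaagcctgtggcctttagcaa

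These 4 windows differed in base composition as well as in the motif. G and C made 71.7% of the LOC112267988 window, 59.0% of the BBS12 window and 66.3% of the LOC105371554 window, against 49.3% of the LOC105370327 window. The ratio of observed to expected CpG was 0.663, 0.760 and 0.788 in the first 3 and 0.336 in the last.

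The rule itself shaped which regions were kept. Of the 73087 merged regions strong in 1 library, 96.8% were distal, and of the 18573 strong in all 7 only 43.4% were. The single hPFE library was the one most often missing: 6662 distal regions were strong in exactly 6 libraries, and 4051 of them (60.8%) lacked hPFE, where 2904 had a weaker peak and 1147 had none. The next most frequent gaps were 982 in hDE replicate 2 and 756 in hESC replicate 1. Without the hPFE library the count of regions was 12123. The libraries differed in genome-wide background, which ran from 2.11 to 7.94 and is the most frequent local background recovered from the deposited values. Their read numbers, and so their depth, are not known here. The weakest strong peak had a −log10 p of 7.25 in hESC replicate 1 and of 69.2 in hDE replicate 2, so the same number limit admitted peaks of different strength. Strong regions within 100 kb of the marker genes of a stage were counted as a check of the labels. Near 5 hESC markers they numbered 25 and 31 (hESC), 21 and 16 (hDE), 21 and 20 (hAFE) and 10 (hPFE). Near hDE markers such as SOX17, GATA6 and EOMES they numbered 36 and 38 (hESC), 59 and 58 (hDE), 40 and 45 (hAFE) and 27 (hPFE). Near 4 hAFE markers they numbered 30 and 37 (hESC), 28 and 19 (hDE), 29 and 31 (hAFE) and 18 (hPFE), so this list was not highest in hAFE, unlike the other stages' lists in their own stage. Near hPFE markers such as PAX9, PAX1 and TBX1 they numbered 27 and 32 (hESC), 29 and 32 (hDE), 32 and 29 (hAFE) and 38 (hPFE). Near 7 genes of mesenchyme, blood and neural cells they numbered 36 and 32 (hESC), 24 and 23 (hDE), 25 and 30 (hAFE) and 23 (hPFE).

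The members were chosen by these peak numbers, whose values are given once, as a description. The 3 regions just inside the limit, by their weakest library, had numbers of 79997, 79995 and 79994, all in hPFE. They were nearest to PRXL2A, to CDH3, which encodes P-cadherin, and to BRF1, a subunit of the RNA polymerase III initiation factor TFIIIB. The 3 just outside had numbers of 80002 in hDE replicate 2 (nearest to JUND) and of 80009 and 80013 in hPFE (nearest to OSBPL3 and TRIM2). The summit of the CDH3 region in hPFE was 6.01 times the background and that of the OSBPL3 region was 5.30 times.

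The regions were wider and closer to genes than distal regions of fewer libraries. Their median width was 868 bp, from 243 to 3133 bp, against 713 bp for distal regions strong in 6 libraries and 421 bp for those strong in 1, where merging over more peaks alone widens a region. The nearest end of a protein-coding gene lay a median of 22669 bp away, against 33181.5 bp for regions strong in 6 libraries and 61126.5 bp for those strong in 1. A gene end lay within 100 kb of 82.5% of the regions, against 63.7% of the other distal regions. Inside the span of a protein-coding gene lay 48.0% of them (95% Wilson interval 47.0 to 49.1%), against 45.9% of the other distal regions. RefSeq spans were used, so exon and intron were not told apart, and every interval here covers counting error only. Per chromosome, the regions made between 3.58% of the distal regions on chromosome 18 and 14.9% on chromosome 19, the chromosome dense in zinc finger genes, with 8.58% on chromosome 17 and 8.08% on chromosome 22.

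A minority of the regions covered an annotated start. Start windows were not used for chromosome 8, which left 7704 of the regions, and 1600 of these (20.8%, 95% Wilson interval 19.9 to 21.7%) overlapped a start window. The share was 5.76% (5.21 to 6.36%) of distal regions strong in 6 libraries, 3.05% in 4, 1.17% (1.09 to 1.25%) in 1, and 81.8% of gene-end regions. Starts of protein-coding genes lay under 1042 of the regions (13.5%) and starts of lncRNAs, long transcripts that encode no protein, under 714 (9.27%), with 156 regions over both kinds. All 886 regions over a coding start alone lay inside a gene span. These are starts further than 1 kb inside the outer ends of the gene. Of the 558 over an lncRNA start alone, 17.2% lay inside the span of a protein-coding gene. At 2887 regions (37.5%) there was no start, no protein-coding gene span and no end of a non-coding gene within 1 kb. The share was 49.7% of distal regions strong in 1 library.

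**Figure D1:**
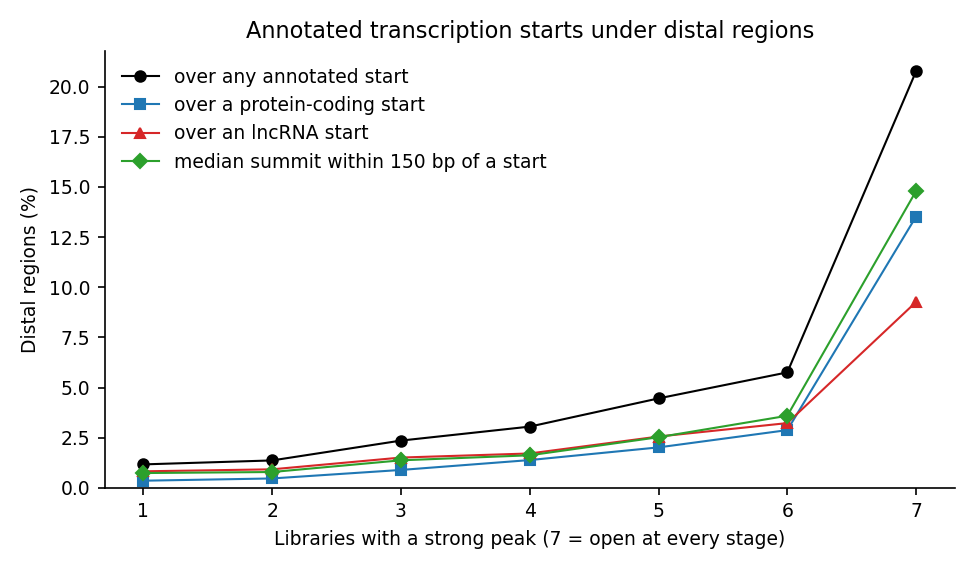
Share of distal regions over RefSeq start windows (y axis, %) against the number of libraries with a strong peak (x axis), for any start, protein-coding starts, lncRNA starts, and starts within 150 bp of the median summit. The points at 7 libraries, the regions open at every stage, are at 20.8%, 13.5%, 9.27% and 14.8%, against 5.76%, 2.88%, 3.23% and 3.59% at 6 libraries.

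The step was also seen on a measure that does not use width. A wide region overlaps more windows, so the distance from the median summit of the 7 libraries to the nearest start was measured too. It was at most 150 bp in 14.8% of the regions (14.0 to 15.6%), against 3.59% of distal regions strong in 6 libraries, 0.737% of those strong in 1 and 63.9% of gene-end regions. In the 1600 regions over a start the summit lay a median of 79 bp from it, and in 1165 of them (72.8%) the summit was upstream of the start. The plot of shares by number of libraries shows the same step between 6 and 7 libraries on both measures.

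Strength and annotated starts went together within the regions. Ranked by the mean peak number over the 7 libraries, and split into 10 groups of equal size, 54.7% of the strongest group covered a start (422 of 771), against 8.17% of the weakest (63 of 771), which is still above the 5.76% of distal regions strong in 6 libraries. The median mean number was 12283.9 for the 156 regions over both a coding and an lncRNA start and 14843.6 for the 886 over a coding start alone. It was 19353.4 for the 558 over an lncRNA start alone and 28195.6 for the 6104 over no annotated start. Regions over no start were also narrower, with a median of 807 bp, against 1209 bp over a coding start alone. Peak number was used by the rule, so this ordering describes the members and is not a test.

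**Figure D2:**
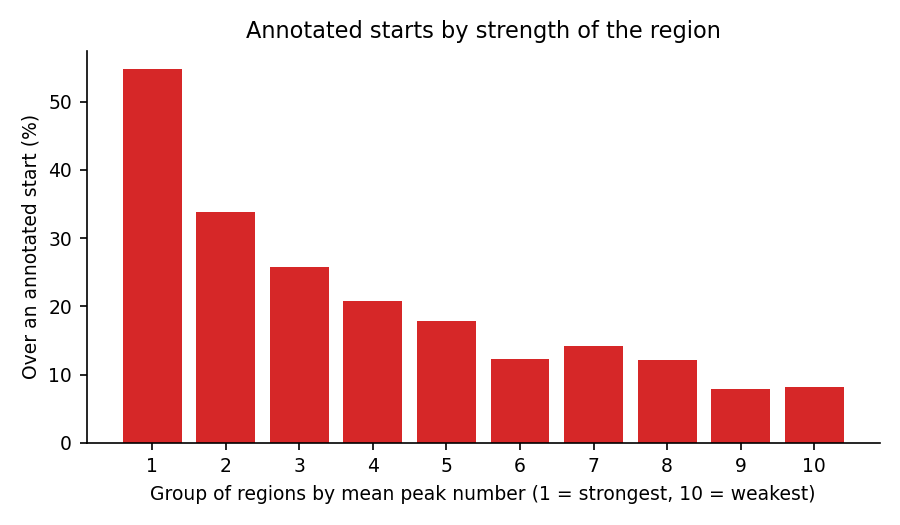
Share of the distal regions open at every stage that cover an annotated start (y axis, %), for 10 groups of the regions ranked by mean peak number over the 7 libraries (x axis, 1 is strongest; 770 or 771 regions each, chromosome 8 left out). The bars run from 54.7% in the strongest group to 8.17% in the weakest.

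The strongest regions lay mainly over starts inside genes and of non-coding genes. The first, at chr7:143836158-143837589, lay 13786 bp from TCAF1 and covered the start of LOC112267988 and an end of the transcribed pseudogene LOC154761. Its summit heights, as multiples of the library background, were 144 and 136 (hESC), 119 and 177 (hDE), 250 and 232 (hAFE) and 80.7 (hPFE), and its peak numbers ran from 21 to 67. It was among the highest summits of every library. The second, at chr16:75516334-75517735, lay 10795 bp from CHST5, a sulfotransferase gene, and covered no start, and its 7 summits fell within 6 bp of each other. Its heights were 86.2 and 123 (hESC), 104 and 135 (hDE), 253 and 199 (hAFE) and 71.4 (hPFE). Before centring hAFE was the highest and hPFE the lowest at both, as in the library medians. On the centred log2 scale described below, the first region ran from 1.97 in hESC replicate 2 to 2.72 in hESC replicate 1, and the second from 1.83 in hESC replicate 2 to 2.36 in hAFE replicate 2. The next 3 covered internal starts of EHBP1, a gene of endocytic transport, of RTN4, which encodes the reticulon Nogo, and of BBS12, where the region also touched the pseudogene CETN4P. Their mean numbers were 157, 219 and 223. In the start window read for each, the start lay 908 bp from the median summit at EHBP1, 26 bp at RTN4 and 102 bp at BBS12. The EHBP1 region thus covered that start with its summit far from it. Among regions at ends of non-coding genes the strongest after these 2 pseudogenes were at the lncRNA LOC105376598 (mean number 238), at the pseudogene VAMP9P (295) and at DANCR (360), an lncRNA known for holding progenitor cells undifferentiated. DANCR heights were 55.4 and 87.0 (hESC), 64.9 and 113 (hDE), 159 and 132 (hAFE) and 51.4 (hPFE).

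Non-coding genes were nearer to the regions than to other distal regions. An end of some non-coding gene lay within 1 kb of 1634 of the regions (20.3%, 95% Wilson interval 19.4 to 21.2%), against 10.6% of distal regions strong in 6 libraries and 5.67% (5.50 to 5.84%) of those strong in 1. Ends of lncRNA genes accounted for 14.7%, against 7.28% and 3.90%. Transfer RNA genes, which supply the adaptors of protein synthesis, lay near 92 regions (1.14%), against 34 (0.510%) strong in 6 libraries and 29 (0.0410%) of the 70758 strong in 1. Of the 92 regions, 32 were on chromosome 6 and 23 on chromosome 1, which carry large clusters of these genes. Counted by gene, 123 of 443 tRNA genes (27.8%) had one of the regions within 1 kb, and 186 (42.0%) had any region open at every stage, gene-end regions included. Small nuclear RNA genes, whose products form the spliceosome, lay near 35 regions (0.434%), 27 of them on chromosome 1, against 4 of the regions strong in 1 library (0.00565%). MicroRNA genes lay near 52 regions (0.645%) and snoRNA genes near 19 (0.236%), against 0.204% and 0.0834% of regions strong in 1 library. Gene-end regions open at every stage had larger shares near any non-coding end (25.4%), lncRNA ends (22.4%), microRNA genes (1.32%) and snoRNA genes (0.390%), and smaller ones near tRNA genes (0.419%) and snRNA genes (0.0951%). Many tRNA and snRNA genes have near-identical copies, and the sources used here do not give how reads that match several copies were placed, so counts over these genes are uncertain.

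The start windows under the regions were rich in CpG, though less so than those at gene ends. Over the 2149 windows of 1751 genes that the regions overlapped, the median G and C content was 64.7%, and the CpG ratio exceeded 0.6 in 74.4%. It did so in 90.5% of 12935 windows in gene-end regions, 25.4% of 2717 in distal regions strong in 1 to 6 libraries, 9.21% of 14330 in no strong region, and 48.9% of all 34961 windows. The share was 78.4% for coding windows in the regions, against 62.2% of all coding windows, and 67.9% for lncRNA windows, against 26.1% of all lncRNA windows. Windows of a gene with several starts overlap, so they are not independent.

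Motifs of SP and KLF, ETS and NRF1 factors stood in more of these windows than of windows in other distal regions, and those of AP-1, GATA and forkhead factors in fewer. All motifs were searched on both strands and given as the share of windows with at least 1 match. The letters GGGCGG of SP and KLF factors stood in 64.5% of windows in the regions, against 30.4% in distal regions strong in 1 to 6 libraries and 45.0% of all windows. CCGGAAG of ETS factors stood in 12.1%, against 4.78% and 10.3%, and GCGC, any letter and TGCGC, of NRF1, an activator of genes of mitochondria and growth, in 7.82%, against 1.07% and 5.80%. In gene-end regions these 3 shares were 74.4%, 20.1% and 12.6%. TGANTCA of the AP-1 factors stood in 5.03%, against 14.3% in other distal regions and 7.68% of all windows. AGATAA of GATA factors stood in 4.98%, against 13.8% and 10.3%, and TGTTTAC of forkhead factors in 2.89%, against 5.08% and 3.42%. CCAAT, bound by NFY, stood in 35.8%, against 29.8% and 34.6%. Motifs made of G and C, and those made of A and T, follow base composition, and no share was corrected for it. A match is a run of letters and not a bound site.

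The CTCF core, CCA, any 2 letters, AG, any 2 letters and GGC, stood in 91 of the 2149 windows (4.23%), against 2.71% of windows in gene-end regions, 3.28% in distal regions strong in 1 to 6 libraries and 2.41% of all windows. With a stricter core, in which the letter after AG is G, the shares were 1.54%, 1.29%, 1.104% and 1.06%. The windows cover only the regions with an annotated start, and the letters at the other 6104 regions were not analysed here. The 4 strongest regions with a match to the core are shown as stretches of 80 bases, with the core in capitals on the strand it was found on or as its reverse complement. They were at a start of DNAJB1, a heat shock cochaperone gene (chr19:14529296-14529375, minus strand), of the lncRNA LOC105370680 (chr14:102524613-102524692, plus strand), of CPAP, a gene of centriole assembly (chr13:24922982-24923061, minus strand), and of LINC00472 (chr6:71420916-71420995, minus strand). The LINC00472 match shares its last 5 letters with the reverse complement of CCAAT.
DNAJB1: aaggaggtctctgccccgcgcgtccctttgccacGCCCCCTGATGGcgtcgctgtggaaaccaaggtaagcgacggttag
LOC105370680: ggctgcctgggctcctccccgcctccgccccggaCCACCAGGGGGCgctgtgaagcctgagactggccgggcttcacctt
CPAP: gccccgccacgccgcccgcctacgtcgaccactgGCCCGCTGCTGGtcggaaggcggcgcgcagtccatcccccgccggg
LINC00472: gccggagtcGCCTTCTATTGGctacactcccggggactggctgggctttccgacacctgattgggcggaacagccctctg
For comparison, the NRF1 letters are in capitals in windows of FOCAD (chr9:20684088-20684167, plus strand) and of CHASERR (chr15:92882595-92882674, plus strand), and the ETS letters in that of LINC01572 (chr16:72665101-72665180, minus strand), which holds 2 matches.
FOCAD: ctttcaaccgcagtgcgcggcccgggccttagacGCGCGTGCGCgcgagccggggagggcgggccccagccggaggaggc
CHASERR: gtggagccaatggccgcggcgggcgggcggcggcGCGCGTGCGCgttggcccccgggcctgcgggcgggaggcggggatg
LINC01572: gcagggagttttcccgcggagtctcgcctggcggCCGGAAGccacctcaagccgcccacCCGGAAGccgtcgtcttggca

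The core lay 131.5 bp from the median summit of the DNAJB1 region, 136.5 bp at LOC105370680, 56.5 bp at CPAP and 70.5 bp at LINC00472. The NRF1 letters lay 94.5 bp from the summit at FOCAD, a focadhesin gene, and 143.5 bp at CHASERR, an lncRNA next to CHD2. Heights at CPAP were 27.0 and 73.8 (hESC), 47.6 and 71.8 (hDE), 131 and 87.2 (hAFE) and 40.6 (hPFE). Those at CHASERR were 45.0 and 94.8 (hESC), 65.1 and 81.2 (hDE), 127 and 119 (hAFE) and 50.9 (hPFE). Both regions were high in every library, and at each the lowest value before centring was in hESC replicate 1.

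At their summits the regions were lower than gene-end regions in every library. Height was taken as the pileup of cut sites at the summit over the genome-wide background of the library. The median over the 8062 regions was 16.6 and 28.4 (hESC), 16.2 and 29.6 (hDE), 41.4 and 25.4 (hAFE) and 11.1 (hPFE). Over the 10511 gene-end regions it was 26.1 and 39.8, 31.0 and 41.4, 73.4 and 49.8, and 23.5. The ratio of the medians ran from 0.474 in hPFE to 0.714 in hDE replicate 2. Heights differ between libraries in both sets of regions, so changes between stages below are taken after centring each library on the median log2 height of all 18573 regions open at every stage. Regions over a start were higher than those over none, with medians of 22.7 and 35.8, against 15.2 and 27.1, in hESC and of 19.3, against 9.89, in hPFE.

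**Figure D3:**
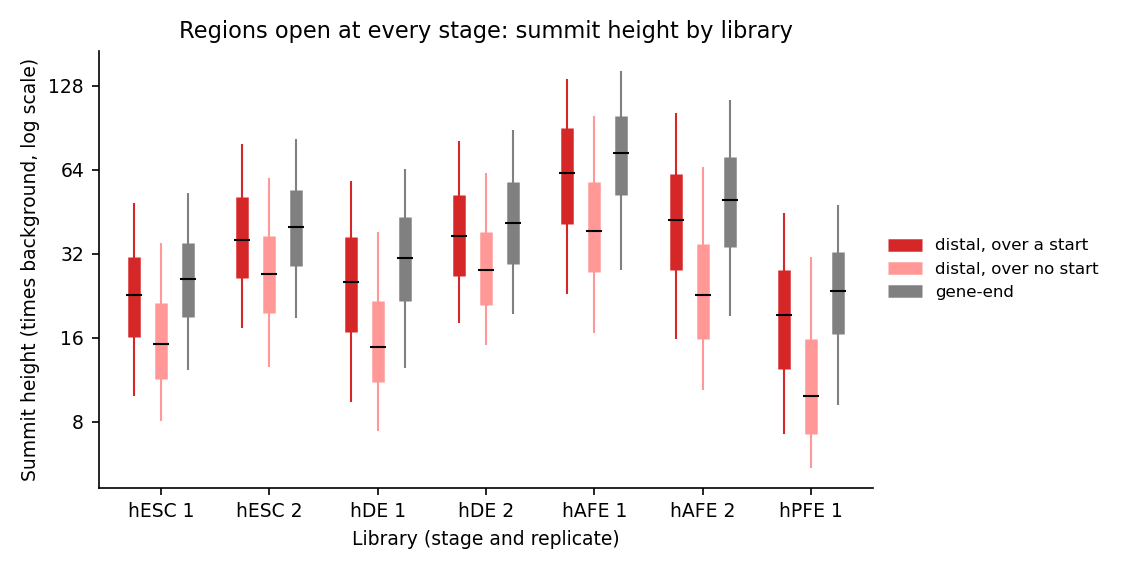
Summit height over the library background (y axis, log scale) in each of the 7 libraries (x axis), for distal regions open at every stage over a start (1600) and over none (6104), and for gene-end regions (10511). Black ticks are medians, thick bars the quartiles and thin lines the 5th to the 95th percentile; in each library regions over no start have the lowest median, for example 9.89 in hPFE, against 19.3 over a start and 23.5 at gene ends.

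Most of the regions were compact. In 4128 (51.2%) every library placed exactly 1 strong peak in the region, against 14.5% of gene-end regions, and the share was 58.9% among the 6104 over no start and 21.4% among those over a start. The summit lay at nearly the same place in all libraries. The distance between the outermost of the 7 summits was a median of 49 bp, at most 50 bp in 4185 regions (51.9%) and at most 100 bp in 6071 (75.3%), and it exceeded 500 bp in 494 (6.13%). Gene-end regions had a median of 59 bp, or of 45 bp where each library had 1 peak, against 40 bp for the regions under the same condition. The median distance between 2 libraries was 11 to 18 bp over the 3 pairs of a stage and 12 to 25 bp over the 18 pairs of different stages, ranges that overlap.

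**Figure D4:**
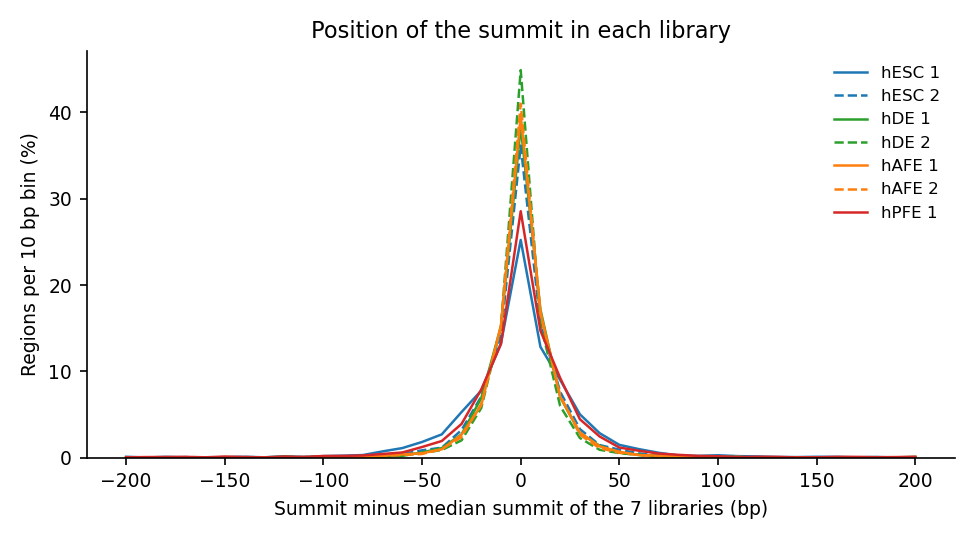
Position of each library's summit relative to the median summit of the 7 libraries (x axis, bp) as a share of the 8062 regions (y axis, % per 10 bp bin). All 7 lines peak at 0; hESC replicate 1 has the lowest share in the central bin, 25.2%, and since the median is itself a summit of 1 library, part of each line lies at 0 by construction.

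Across the regions, height ranks were on average more alike within a stage than between stages, with overlap between the pairs. Spearman's rho over the 8062 regions was 0.70 to 0.80 for the 3 replicate pairs (mean 0.73) and 0.41 to 0.71 for the 18 pairs between stages (mean 0.59). The highest between stages, 0.708 for hAFE replicate 2 and hDE replicate 1, was above 2 of the 3 replicate pairs. Over gene-end regions the values were 0.74 to 0.83 and 0.62 to 0.86, so there the highest was between stages. Regions over no start had a mean of 0.52 between stages, against 0.71 for regions over a start. These are descriptions over regions of the same genome, which share base composition and mappability, and not tests.

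Open at every stage did not mean equal height in every library. After centring, the range of log2 height over the 7 libraries had a median of 1.18, against 0.87 in gene-end regions. It was under 1 in 2793 of the regions (34.6%), against 66.2%, and over 2 in 663 (8.22%), against 0.79%. This range includes differences between replicates of a stage, so it does not measure change between stages. The regions were also lower than gene-end regions, and the part of height in the wider range was not tested. The most even region of all was a multi-copy one, nearest to FAM90A12 on chromosome 8, with a range of 0.15. Its heights of 16.1 and 26.2 (hESC), 17.3 and 24.3 (hDE), 41.4 and 28.8 (hAFE) and 12.5 (hPFE) moved with the library medians. FAM90A genes form a family of near-identical copies, so reads may be shared between them. The next were inside DAB2IP, a RAS GTPase-activating protein gene (range 0.20), and over starts of LOC100996660 (0.21), of DPYSL3, a gene of neuronal growth cones (0.23), and of LOC105371554 (0.24). The region over the LOC105371554 start, whose window is printed above, had heights of 31.7 and 55.6 (hESC), 37.6 and 54.8 (hDE), 103 and 64.4 (hAFE) and 30.4 (hPFE). These 5 were chosen for evenness, which is therefore no result about them.

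A region was counted as changed between stages where no library of the later stage overlapped the range of the earlier and the mean centred log2 height differed by at least 1. No test was run on these differences. An exact permutation of 2 libraries against 2 cannot pass a threshold of 0.05, hPFE has 1 library, and no model was fitted to the heights. In hDE, 226 regions were higher than in hESC (2.80%) and 188 lower (2.33%), against 4.71% and 8.3% of all 41356 regions with a peak in all 7 libraries. In hAFE, 167 were higher than in hDE (2.07%) and 434 lower (5.38%), against 3.79% and 10.6%. In hPFE, 293 were higher than in hAFE (3.63%) and 427 lower (5.30%), against 8.25% and 6.99%, and 274 were higher than in hESC (3.40%) and 1040 lower (12.9%), against 5.5% and 18.9%. A strong peak in every library limits how low a member can fall, so nothing is read from the shares lying below the background. The comparisons share libraries and are not independent, and the source of the libraries differs in hAFE against hDE and in hPFE against hESC. In 5919 regions (73.4%) none of the 4 comparisons was called, against 93.7% of gene-end regions. This share was not computed over all 41356 regions, so nothing is read from it about the members.

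These directions depend on the centring and on single libraries. With each library centred on the 8062 regions alone, hPFE was higher than hESC in 743 and lower in 369, hPFE was higher than hAFE in 439 and lower in 273, and with no centring hAFE was higher than hDE in 1256 and lower in 41. On the main scale the regions lay a median of 0.26 lower in hPFE than in hESC while gene-end regions lay 0.14 higher. Without hDE replicate 2, 145 were higher in hDE than in hESC and 454 lower, and 348 were higher in hAFE than in hDE and 244 lower. Without hESC replicate 1, 283 were higher in hDE than in hESC and 453 lower. Between the 2 hDE replicates 699 regions were higher in replicate 2 by at least 1 and 42 lower, between the hESC replicates 300 and 146, and between the hAFE replicates 191 and 258. Of the 18 pairs of single libraries from different stages, differences of at least 1 stood at 656 to 2017 regions (median 1049.5), against 446, 449 and 741 for the 3 replicate pairs. The count was above 741 in 17 of the 18. These counts are of single libraries and have no condition on overlap, unlike the counts between stages. The 18 pairs are drawn from the same 7 libraries and are not independent. All counts in this paragraph are over the 8062 regions only. They were not computed over all regions with a peak in all 7 libraries, so they are no result about the members. Which stage had the higher heights as a whole cannot be told from these data, and the single regions below are given with every library.

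**Figure D5:**
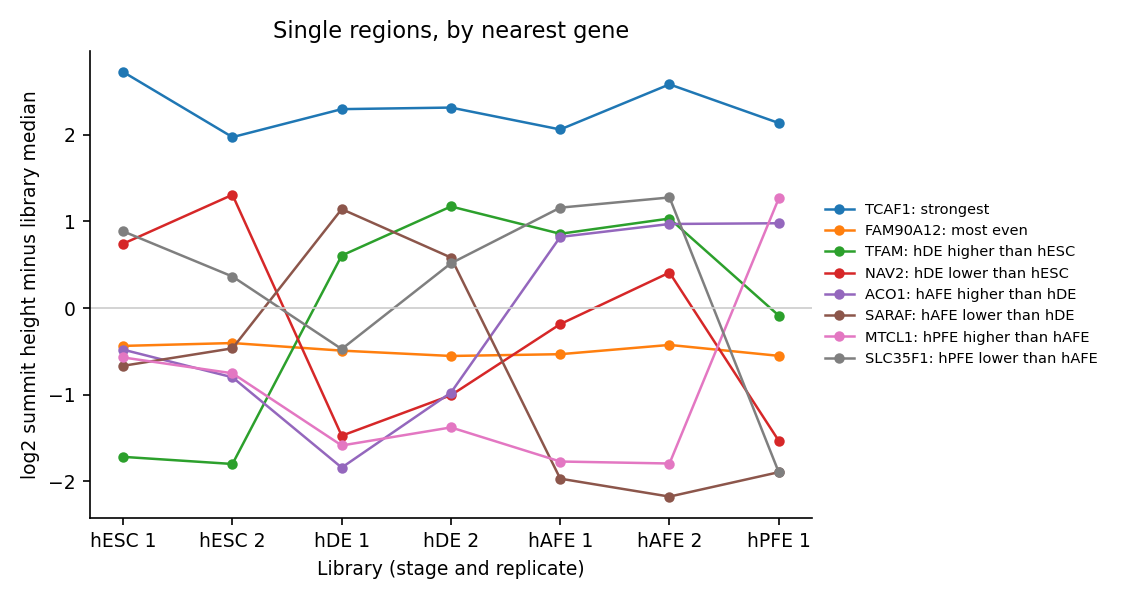
Centred log2 summit height (y axis; 0 is the library's median over all regions open at every stage) of 8 single regions in the 7 libraries (x axis), labelled by the nearest gene and why each was named. The region near TCAF1 is the highest in every library and that near FAM90A12 has a range of 0.15, while the other 6 were chosen for the largest difference at 1 step.

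The members with the largest differences in each direction were chosen for them, so their values are descriptions. Between hDE and hESC the largest rise was 13231 bp from TFAM, the mitochondrial transcription factor gene, at chr10:58412451-58413162. Its heights were 36.9 and 80.4 in hDE, against 6.63 and 9.96 in hESC, a centred log2 difference of 2.65. It was 109 and 79.2 in hAFE and 17.3 in hPFE, so hESC was the lowest stage. The next were 172206 bp from CNTN3, a contactin gene of cell adhesion (29.1 and 87.4 in hDE, against 7.10 and 9.52 in hESC), and 690662 bp from GRAMD2B (46.1 and 67.0, against 7.10 and 12.3). The largest fall was inside NAV2, a neuron navigator gene, at chr11:20000242-20001186. Its heights were 8.74 and 17.8 in hDE, against 36.5 and 85.7 in hESC, a difference of -2.26, and it was 52.7 and 51.4 in hAFE and 6.36 in hPFE. On the centred log2 scale this region was at 0.74 and 1.31 in hESC and at -1.47 and -1.01 in hDE. It was at -0.18 and 0.41 in hAFE and at -1.53 in hPFE, so hAFE lay between hESC and the other stages. It was also among the 3 largest falls between hPFE and hESC (-2.56). The next falls were inside FXYD6-FXYD2, a readthrough of genes of ion pump regulators (-2.07), and 167024 bp from PRICKLE1, a gene of planar cell polarity (-1.91). At PRICKLE1 the heights were 5.68 and 19.5 in hDE, against 24.6 and 55.2 in hESC, and 43.4 in hPFE.

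Between hAFE and hDE the largest rise lay 1353291 bp from its nearest gene, ACO1, at chr9:31030535-31031352. Its heights were 106 and 75.8 in hAFE, against 6.77 and 18.1 in hDE, a difference of 2.30, and hPFE kept 36.2. The next were inside TENM4, a teneurin gene of cell adhesion (155 and 107 in hAFE, against 10.7 and 26.6 in hDE), and inside STK24, a kinase gene, over the start of LOC105370327 whose window without GGGCGG is printed above. That region had heights of 90.5 and 58.1 in hAFE, against 6.34 and 16.1 in hDE, and 11.3 in hPFE. In hESC it had 11.8 in replicate 1 and 37.2 in replicate 2. On the centred log2 scale these were -0.88 and 0.10, against 0.60 and 0.59 in hAFE. The largest fall lay 28180 bp from SARAF, a regulator of calcium entry, on chromosome 8. Its heights were 15.3 and 8.57 in hAFE, against 53.5 and 53.4 in hDE, a difference of -2.93. The next falls were over the start of LOC105370349 on chromosome 13 (14.0 and 21.02 in hAFE, against 45.0 and 92.7 in hDE) and inside KIAA0825 (13.1 and 9.08, against 25.8 and 61.0). At each of these 6 regions both hDE libraries lay on the same side of both hAFE libraries, and the source of the libraries differs between these stages too.

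Between hPFE and hAFE the largest rise was 58113 bp from MTCL1, a microtubule crosslinking factor gene, at chr18:8890891-8891517. Its height was 44.2 in hPFE, against 17.6 and 11.2 in hAFE, a centred difference of 3.05, and its peak number was 317 in hPFE, against 47365 and 45833 in hAFE. Against hESC, where it was 14.7 and 20.6, hPFE was also the highest. The next rises were inside LOC124904790 (25.6 in hPFE, against 13.1 and 8.31 in hAFE) and inside MYPN, which encodes the muscle protein myopalladin (34.8, against 14.9 and 14.3). The largest fall was inside SLC35F1, a solute carrier gene, at chr6:117951615-117952315. Its height was 4.95 in hPFE, against 134 and 93.7 in hAFE, a difference of -3.11, and its peak number in hPFE was 79651, close to the limit. The next falls were inside ANK2, which encodes ankyrin-B (6.89 in hPFE, against 126 and 75.5 in hAFE), and 52151 bp from GC, the vitamin D-binding protein gene (4.95, against 81.9 and 56.6). At both, hDE and hESC also lay above hPFE. Heights near 5 are close to the lowest the number limit admits in that library, so a larger fall would have removed the region from the set.

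Between hPFE and hESC the 3 largest rises were near PFN2, a profilin gene (41.0 in hPFE, against 7.10 and 14.3 in hESC), near ANXA8L1 (54.9, against 11.4 and 17.1), and near CYP24A1, which encodes the enzyme that inactivates vitamin D (49.1, against 12.3 and 16.2). ANXA8L1 is an annexin gene with near-identical copies on chromosome 10, so its value is uncertain. It was also 48.5 and 104 in hDE, so hESC was the low stage there, whereas PFN2 was 7.21 and 14.1 in hDE and 16.2 and 30.1 in hAFE. The largest fall was inside ZSWIM4 over the start of LOC107985334, at chr19:13817112-13818560. Its heights were 6.18 in hPFE, against 44.5 and 102 in hESC, a difference of -2.87, with 20.3 and 25.4 in hDE and 28.4 and 12.7 in hAFE. Every library of the 3 later stages lay below both hESC libraries. The start window of LOC107985334, on the minus strand at chr19:13817793-13818092, holds 2 matches to GGGCGG, in capitals, and a CpG ratio of 0.407.
LOC107985334: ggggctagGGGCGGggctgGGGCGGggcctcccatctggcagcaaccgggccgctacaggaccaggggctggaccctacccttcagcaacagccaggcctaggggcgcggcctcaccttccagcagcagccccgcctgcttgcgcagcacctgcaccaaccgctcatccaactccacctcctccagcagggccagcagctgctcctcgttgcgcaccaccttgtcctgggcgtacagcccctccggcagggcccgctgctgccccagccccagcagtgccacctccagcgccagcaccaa
The next fall was 766457 bp from FAM98A, with 5.48 in hPFE, against 48.3 and 55.2 in hESC.

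Regions over starts were called as changed in a smaller share than regions over none. Lower in hPFE than in hESC were 92 of the 1600 over a start (5.75%), against 896 of the 6104 over none (14.7%), and 2.64% of gene-end regions. None of the 4 comparisons was called in 86.6% of regions over a start, against 70.4% over none. This share was not computed over all regions with a peak in all 7 libraries. The median range of centred log2 height was 0.98, against 1.23. By class of start, the share lower in hPFE than in hESC was 1.92% over both a coding and an lncRNA start, 4.97% over a coding start alone and 8.06% over an lncRNA start alone. Regions over a start were also higher, and the part of height in this difference was not tested. The shares lower in hPFE than in hESC also depend on the centring. On the main scale the median difference was -0.34 over no start, 0.027 over a start and 0.14 in gene-end regions. With centring on the distal regions alone, 743 of them were higher in hPFE than in hESC and 369 lower. The split by start was not recomputed on that scale.

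The regions were spread over many genes. Of 19974 protein-coding genes, 5102 (25.5%) were the nearest gene, within 100 kb, of at least 1 region, 3942 of them of exactly 1, and 63.0% of all genes had a region within 100 kb of an end. The median gap between neighbours was 173511 bp, and 805 of the regions (9.99%) stood in 386 groups with gaps of at most 10 kb. The largest groups had 4 regions, at FAAP20 and PRKCZ, at ARHGEF19 and CPLANE2, and inside LMNA, the gene of lamin A and C of the nuclear envelope, all on chromosome 1. The genes with the most regions were DAB2IP with 7, of which 6 lay inside it, and CROCC, HHAT, ZNF423, ABCA1 and SEPTIN9 with 6 each. HHAT palmitoylates Hedgehog proteins, ABCA1 exports cholesterol, ZNF423 is a zinc finger regulator of differentiation and SEPTIN9 a cytoskeletal GTPase. CROCC, which encodes rootletin, lies among duplicated copies on chromosome 1, so its count is uncertain. CHD2, a chromatin remodeller, had 5 regions with a mean number of 4806.3, the strongest group among these 8 genes, including the CHASERR region at 16837 bp. SRRM3 had 5 with a mean of 19823.3. Long genes have room for more regions inside them: HHAT and ZNF423 span 348963 and 371756 bp.

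Regions near genes of the endoderm programme included some that were called as changed between stages and some that were not. The list of anterior foregut and pharyngeal endoderm had a region within 100 kb at 23 of 26 genes (88.5%, 95% Wilson interval 71.0 to 96.0%), definitive endoderm and mesendoderm at 13 of 20 (65.0%), and pluripotency at 11 of 19 matched genes (57.9%), beside 63.0% of all genes. PAX9, a paired-box gene of the pharyngeal pouches, had 4. The strongest, at chr14:36661301-36662314, lay inside the gene over an internal start, with heights of 31.7 and 68.0 (hESC), 48.3 and 71.7 (hDE), 80.1 and 82.0 (hAFE) and 47.2 (hPFE). None of the 4 PAX9 regions was called at any step. MEIS2 and MEIS1, homeobox genes that act with HOX proteins, had 4 and 3. A region inside MEIS2, at chr15:37045577-37046452, had 7.95 in hPFE, against 106 and 78.6 in hAFE. A region inside MEIS1, at chr2:66481005-66481685, had 14.0 and 38.8 in hDE, against 7.10 and 11.3 in hESC, and 7.24 in hPFE, against 72.0 and 26.5 in hAFE. PAX1 had 3, none called. A region not called need not be steady: that at chr20:21767472-21768349 had a range of centred log2 height of 1.69. FOXA2, a forkhead factor of endoderm, had 2 within 100 kb, and that at chr20:22490360-22491438 had 32.8 and 33.8 in hDE, against 6.63 and 13.4 in hESC, and 8.12 in hPFE, against 78.3 and 45.9 in hAFE. GATA4 had 3, and that at chr8:11641739-11643151 had 42.2 and 54.3 in hDE, against 13.3 and 19.5 in hESC. At the named regions of MEIS1, FOXA2 and GATA4 both hESC libraries lay below both hDE libraries. The heights in this paragraph are before centring, which overstates falls from hAFE to hPFE. Library medians over all regions open at every stage were 59.9 and 38.7 in hAFE and 18.4 in hPFE.

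Among pluripotency genes LIN28A had 4 regions and LIN28B 3, both genes of RNA-binding proteins that block maturation of let-7 microRNAs. The region inside LIN28A at chr1:26418522-26419673 had 27.5 and 40.04 (hESC), 34.7 and 27.5 (hDE), 72.0 and 37.9 (hAFE) and 9.71 (hPFE), and was called lower in hPFE than in hAFE and in hESC. A region inside LIN28B at chr6:104952904-104954021 had 10.2 in hPFE, against 29.4 and 50.6 in hESC, whereas that over the starts of LIN28B and LIN28B-AS1, at chr6:104940211-104941703, had 17.0, against 31.7 and 37.2, and was not called. NANOG had 2, neither called, and the nearer, 7756 bp from NANOG, lay closer to SLC2A14. TDGF1 had 2, both lower in hPFE than in hESC.

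The shares for the other lists lay on both sides of that over all genes. A region lay within 100 kb of 18 of 24 housekeeping genes (75.0%), of 16 of 22 genes of general transcription and chromatin remodelling (72.7%) and of 10 of 18 genes of architectural proteins such as cohesin (55.6%), beside 63.0%. Genes of other tissues had 12 of 25 (48.0%), and 8 of 9 protocadherin genes (88.9%) shared a few regions between them, since these genes stand side by side. Near CKM, the creatine kinase gene of muscle, a region at 3172 bp was lower in hDE than in hESC (14.0 and 22.3, against 27.5 and 42.2) and lower in hPFE (6.36). Near the keratin gene KRT14 a region at 2053 bp had 6.36 in hPFE, against 62.6 and 20.2 in hAFE. These heights are before centring, and the library medians over all regions open at every stage were 18.4, against 59.9 and 38.7. Regions near genes that these cells are not known to use were therefore strong at all stages too, and a nearest gene is a position and no sign of what a region acts on. Gene-dense parts of the genome bring more regions within 100 kb of any gene.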

How the data were processed

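The 7 ATAC-seq peak lists of H1 cells (hESC, hDE and hAFE with 2 libraries each, hPFE with 1) were analysed, grouped by their titles. Per the submitters' processing notes the build was hg38 and DiffBind was used, with no version; the aligner and caller were not given in the sources used here. Tokens in the deposited file names record trimming, removal of duplicates and mitochondrial reads, Tn5 sites, p up to 0.01 and a limit of 300000 peaks, so that each list was cut by number.

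The authors' files give per peak a fold enrichment (a ratio of the summit over its local background), a −log10 p-value, a −log10 q-value and a summit position; the deposited score column was not used. The pileup P and local mean L were recovered from fold = (P + 1) / (L + 1) and from the Poisson tail above P at mean L, for 100% of strong peaks within 0.001 of the deposited −log10 p. Height is P over the most frequent L of the library. How far this background follows depth was not tested, and the read number is unknown. Strong peaks numbered 79387 to 79828 per library, and overlaps of at least 1 bp were merged. Where a region held several peaks of a library, number, fold and summit position were those of the peak with the lowest number. Height was the highest of any deposited peak overlapping the region, so height and summit position can come from different peaks.

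Genes and start windows are from RefSeq (GRCh38.p14, 19974 protein-coding genes; 1 of the list symbols was not matched). No genome sequence was used here, so the planned CTCF search around summits was replaced by the start windows. Members and lists were chosen with earlier results of these data known, and no test was made. Named regions are the 5 with the lowest mean peak number, the 5 most even, the 3 largest rises and falls of each comparison, the 3 on each side of the limit, the 8 genes with most regions, up to 4 genes of each list and the 5 non-coding genes at the strongest regions. Scripts used Python 3.11.15, numpy 2.4.6, pandas 2.3.3, scipy 1.17.1 and matplotlib 3.10.9, and the steps were tested on simulated data.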

Additional observations from a re-analysis of the deposited data

How the results depend on the processing

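Each alternative changed 1 choice. Of 90 recomputed values, 58 stayed within their limits and 32 moved; none reversed, since no value has a sign, but the split of changed regions into higher and lower did turn with the centring, as given with the counts. With a peak number limit of 50000 the regions numbered 3968, with 50.7% inside a gene, 26.0% near a non-coding end, 30.5% over a start and 10.7% changed between hPFE and hESC. With 30000 the values were 1935, 54.4%, 31.3%, 41.4% and 5.94%. At 5 kb from gene ends, 45.9% lay inside a gene, 19.6% over a start and 17.5% were changed. With summits within 250 bp of their median, 19.2% lay near a non-coding end and 19.1% over a start. The share changed between hPFE and hESC, 16.3% as reported, was 7.63% from the deposited fold enrichment, 41.3% with no centring, 13.8% with centring on the regions alone (chosen after seeing the data), and 47.5% and 0.881% at differences of at least 0.5 and 2. Leaving out each library in turn gave 8228 to 12123 regions, 46.2 to 48.7% inside a gene, 16.5 to 20.2% near a non-coding end, 15.0 to 20.5% over a start, 15.5 to 19.4% changed, a median summit distance of 15 to 17 bp and the CTCF core in 4.20 to 4.37% of windows. The highest count and the lowest shares inside a gene, near a non-coding end and over a start came without hPFE. The stricter CTCF core stood in 1.54% of windows. Within 50 kb, 40% of definitive endoderm and 61.5% of foregut genes had a region, beside 45.2% of all genes. The causes of these shifts were not tested.

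What depth limits was not tested: hPFE and hDE replicate 2, most often the missing library, had backgrounds of 5.66 and 7.94, against 2.22 in hAFE replicate 1, missing in 177 regions. Background and gaps did not go together throughout. hESC replicate 1, with a background of 2.11, was missing in 756, and hDE replicate 1, with 4.58, in 212. hPFE has no replicate. The planned CTCF windows of 50, 100 and 150 bp around summits were not run, because no genome sequence was used here. No paired analysis was possible because no result comes from a test, and hPFE has 1 library. Results over starts and start windows were added after seeing the data.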

Other observations

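Genes of chromatin proteins had regions near them that were called as changed between stages and regions that were not. WAPL, which releases cohesin from DNA, had 5 distal regions open at every stage within 100 kb. The strongest, at chr10:86399804-86401469 and nearest to GRID1, had heights of 44.5 and 51.3 (hESC), 41.3 and 62.8 (hDE), 85.5 and 97.3 (hAFE) and 28.4 (hPFE), and was called at no step. Another, 13295 bp from WAPL, was called lower in hDE and in hPFE than in hESC, with 6.77 and 15.0 in hDE, 6.54 in hPFE, and 15.6 and 34.2 in hESC. YY1, a zinc finger factor, had 4, none called, and the strongest had a range of centred log2 height of 0.58. ZNF143, another zinc finger factor, had 4. A region 37196 bp from it, nearest to the cell cycle kinase gene WEE1, was called higher in hPFE than in hAFE and in hESC, with 42.4 in hPFE, 52.2 and 49.1 in hAFE, and 14.7 and 15.4 in hESC. Its height in hPFE was below both hAFE values before centring, so the call against hAFE rests on the centring.

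Near the actin gene ACTB stood 5 such regions. The 4 that were not called had ranges of 0.73 to 1.27, while that at chr7:5574350-5575426, nearer to FSCN1, a gene of actin bundling, was called higher in hDE than in hESC, with 35.6 and 44.1 in hDE, against 15.2 and 22.1 in hESC. At EP300, which encodes a histone acetyltransferase, the region over the start of EP300-AS1 had 22.7 and 37.9 (hESC), 27.3 and 33.0 (hDE), 61.7 and 20.5 (hAFE) and 21.9 (hPFE). The hAFE replicates held the highest and the lowest of these 7 heights before centring. The median over all regions open at every stage was 59.9 in hAFE replicate 1 and 38.7 in replicate 2. The height of 61.7 thus lay near the median of its library and that of 20.5 below it. These genes belong to the gene lists described in the report and were singled out here after their values were seen.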
